A study of Mus musculus with 5 samples.

Results

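The genes described here were 38 transcription factor genes of the homeobox and paired-box families outside the Hox clusters, chosen by name from 34610 protein-coding and lncRNA genes. They comprised 8 paired-box (Pax) genes, 9 LIM homeobox genes, 4 NK homeobox genes, 3 genes of the sine oculis class (Six2, Six3 and Six6), 5 Otx, Emx and Gsc genes, 6 Dlx and Msx genes, Cdx2, and the TALE homeobox genes Meis1 and Irx3. Each gene was taken as its RefSeq span on the mouse mm10 build with 2 kb either side. Whole-genome bisulfite sequencing had been applied to sperm that swam out of the cauda epididymis, the storage end of the epididymal duct, of C57BL/6 mice. The groups were 2 libraries of mice aged 18 months (old replicates 1 and 2) and 3 libraries of mice aged 2 months (young replicates 1 to 3). The labels name no other treatment or genotype, and they do not state that different libraries are different animals. The p-values below therefore cover the spread among these 5 libraries, which may be technical. A methylation level is the percent of reads methylated, summed over the CpGs of a region. A read is counted at each CpG that it covers, and the read counts given for regions, tiles, windows and libraries are such sums. It was computed at common CpGs, those with at least 5 reads in all 5 libraries, of which 31 of the 38 regions held at least 1 and 26 held the 5 needed for a test. In 26 of the 38 regions, not all of them among those tested, another annotated gene overlaps, and a level there belongs to both.

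Homeobox and paired-box proteins bind DNA through the homeodomain and the paired domain, and they set the identity of body regions and cell types in the embryo. In cells that do not use them, many such genes are held silent by Polycomb proteins at CpG-rich DNA that carries little methylation. In sperm, broad unmethylated stretches over developmental genes of this kind are well known, in a genome that is otherwise highly methylated.

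In these libraries the regions were far less methylated than the rest of the genome, and no region passed the adjusted test for a difference between the ages. The median level of the 26 measured regions was 37.4%, against 92.6% for all 23172 gene regions tested. A level under 50% was seen in 17 of the 26 (65.4%), against 4.46% of all regions, and a level under 20% in 11 (42.3%), against 1.42%. Among the 985 common CpGs in these regions, 44.3% were under 20% methylated and 38.8% were at 80% or more. Over all 2255866 common CpGs of the genome the shares were 1.30% and 85.9%. Coverage at the 985 CpGs was a median of 14 and 14 reads in old replicates 1 and 2, and of 13, 12 and 17 reads in young replicates 1 to 3.

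The sequence before the start of 3 of these genes is shown. The common CpGs were nearly unmethylated in the printed bases of Pax5 and, for Isl1 and Lhx9, elsewhere within 1 kb of the start. The printed bases differ widely in CpG density. Each line gives the 250 bases upstream of the annotated start, from RefSeq on GRCm38.p6, read 5′ to 3′ on the minus strand on which the gene lies, with each CG in capitals. Pax5, at chr4:44710695-44710944, holds 19 CpGs, Isl1, at chr13:116309689-116309938, holds 33, and Lhx9, at chr1:138842445-138842694, holds 4. Pax5 is the only gene of the set with enough common CpGs in the printed bases to give them a level; Isl1 and Lhx9 were added after their values were seen, and their levels rest on common CpGs of the start window outside these bases.
Pax5: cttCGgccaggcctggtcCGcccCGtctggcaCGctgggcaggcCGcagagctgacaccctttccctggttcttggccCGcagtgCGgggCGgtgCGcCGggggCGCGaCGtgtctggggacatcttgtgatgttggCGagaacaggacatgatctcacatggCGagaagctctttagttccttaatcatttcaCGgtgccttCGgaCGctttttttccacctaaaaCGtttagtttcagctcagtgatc
Isl1: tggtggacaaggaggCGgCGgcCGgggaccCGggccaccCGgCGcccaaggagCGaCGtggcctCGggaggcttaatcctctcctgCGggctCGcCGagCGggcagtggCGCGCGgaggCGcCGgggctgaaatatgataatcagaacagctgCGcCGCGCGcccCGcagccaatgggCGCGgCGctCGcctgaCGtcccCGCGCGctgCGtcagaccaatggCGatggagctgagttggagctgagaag
Lhx9: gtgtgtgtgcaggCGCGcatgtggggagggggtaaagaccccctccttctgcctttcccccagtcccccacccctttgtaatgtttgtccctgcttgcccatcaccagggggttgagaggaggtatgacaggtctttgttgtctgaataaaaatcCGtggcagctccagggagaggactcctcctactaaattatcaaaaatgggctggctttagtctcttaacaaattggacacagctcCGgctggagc

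In the printed Pax5 bases 16 of the 19 CpGs were common. Their level was 0.514% and 0.671% in old replicates 1 and 2, and 0%, 1.66% and 2.54% in young replicates 1 to 3. It rests on 228 to 389 reads per library, summed over the 16 CpGs. All 5 libraries were thus nearly unmethylated there, and the ages overlapped. Within 1 kb either side of the Isl1 start the level was 0.926% and 1.45% in old sperm, and 0.699%, 0% and 1.39% in young sperm, at 12 CpGs. The Lhx9 window had 0% and 4.35% in old sperm, and 0%, 0% and 3.85% in young sperm, but on only 4 CpGs and 23 to 45 reads. The common CpGs of both windows were at 4.35% or less in every library. These CpGs lie outside the printed bases, so they give no level for the CpG-poor or CpG-dense stretch itself. At every listed CpG the Lhx9 window had 5.22% and 5.81% in old sperm, and 1.41%, 3.39% and 3.23% in young sperm. The ages did not overlap there (quasi-binomial model, unadjusted p = 0.238).

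Pax5, which commits blood progenitors to the B-cell lineage, was the gene with the most densely covered start, with 33 common CpGs within 1 kb. Methylation climbed inside the gene over a short stretch. At 4 CpGs between 253 and 317 bp after the start the level was 7.77% and 8.98% in old sperm, and 6.45%, 5.28% and 8.49% in young sperm. At 3 CpGs between 343 and 350 bp it was 33.6% and 32.3% in old sperm, and 26.1%, 27.3% and 29.1% in young sperm. The old libraries lay above all young libraries at this step, which was picked out after its values were seen and has no test of its own. They did so too at 5 CpGs between 14 and 55 bp, with 5.09% and 5.30% in old sperm, and 1.46%, 4.81% and 3.30% in young sperm. At 3 CpGs from 507 to 705 bp the level was 81.5% and 87.1% in old sperm, and 84.0%, 78.5% and 83.8% in young sperm, and the ages overlapped again. Coverage at the CpGs from 253 to 350 bp was 119 to 233 reads per library, well above the typical 12 to 17, and what that excess of reads does to the levels was not tested. Over the whole window Pax5 had 15.0% and 16.8% in old sperm, and 13.9%, 12.6% and 15.2% in young sperm, a difference of 1.98 points (quasi-binomial model, unadjusted p = 0.151).

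**Figure D1:**
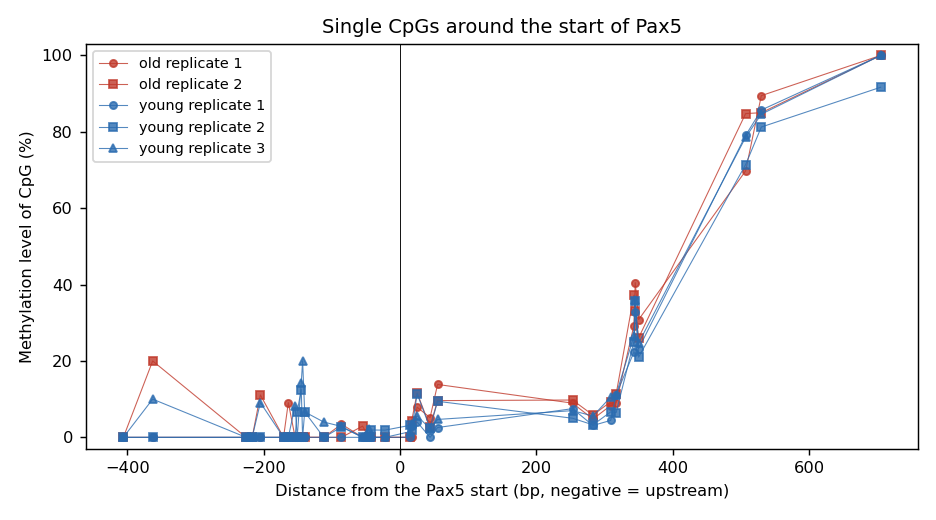
Methylation level (%) of each common CpG against its distance in bp from the annotated Pax5 start, with 1 line per library (red, old; blue, young). All 5 libraries lie at 20% or less up to 317 bp after the start, and at 69.8% or more from 507 bp on.

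Among the starts of the other genes, few had enough common CpGs. Of 33 genes with an annotated start, 7 had a start window with at least 3 common CpGs, and all 7 were under 20%, with a median of 4.53%. Over all genes, the median start window was at 77.3% and 20.6% were under 20%. Besides Pax5, Isl1 and Lhx9 these were Meis1 (4.53%, all libraries pooled), a TALE homeobox cofactor of Hox proteins, Nkx2-2 (4.21%), Msx1 (5.46%) and Dlx2 (15.5%). No window differed between the ages at an adjusted p under 0.05 (percent called over all 7793 windows, 0), and none of the 9 windows of these genes, which include an end of the Lhx5 and Dlx6 spans, had an unadjusted p under 0.05 with either the quasi-binomial model or limma. The share of all windows at an unadjusted p under 0.05 was 2.16%. At every listed CpG, where a library need not share its CpGs with the others, the measured starts of 10 genes of the set were all under 20%, with a median of 5.25%.

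The low stretch around these starts was wide. At every listed CpG, the bin from 1 to 2 kb upstream was at 9.27% in old sperm and 7.21% in young sperm (means of the libraries), and the bin from 1 to 2 kb downstream at 5.05% in old sperm and 5.15% in young sperm. For all protein-coding genes the same bins were at 75.6% in old sperm and 75.8% in young sperm upstream, and at 68.8% in old sperm and 69.2% in young sperm downstream. From 3 to 4 kb downstream the regulators still had 11.9% and 14.1% in old sperm, and 11.3%, 11.1% and 10.2% in young sperm, while all protein-coding genes were at 87.2% in old sperm and 87.1% in young sperm. Further out, between 6 and 7 kb upstream, the regulators were at 78.3% in old sperm and 82.5% in young sperm, the highest of the bins. Between 9 and 10 kb upstream they were at 55.9% in old sperm and 56.1% in young sperm. Between 9 and 10 kb downstream they were at 28.0% in old sperm and 26.7% in young sperm. The median over genes in these outermost bins was 90.5% upstream and 76.7% downstream. Each 1-kb bin rests on 6 to 15 of the 33 genes with reads in every library, and bins weight genes by reads. Distances were taken from the first listed start of each gene, although some genes, such as Pax2 and Pax6, have several. From 3 to 6 kb upstream the median over genes was 65.5% to 74.9% although pooled reads were at 22.7% to 32.7%, so the width upstream differed between genes.

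**Figure D2:**
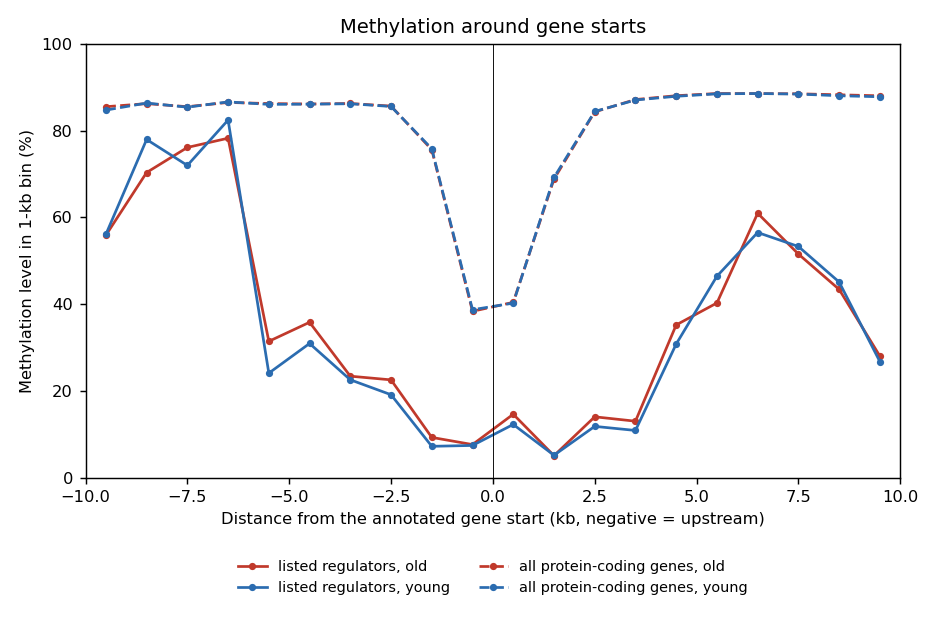
Methylation level (%) in 1-kb bins against distance (kb) from the annotated start, for 33 listed regulators (solid) and 17491 protein-coding genes (dashed), as the mean of the libraries of each age at every listed CpG. For a gene with more than 1 annotated start, the first listed was used. With reads pooled over genes, the regulators stay under 25% from 4 kb upstream to 4 kb downstream in both ages. All protein-coding genes are lowest within 1 kb of the start, at 38.3% to 40.4%.

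Cut into 1-kb tiles, the regions showed the same contrast. Of 114 measured tiles, 40 (35.1%) were under 20%, 20 (17.5%) between 20% and 80%, and 54 (47.4%) at 80% or more. Among all 321659 tiles the shares were 0.715%, 11.3% and 88.0%. The low tiles belonged to 20 of the 27 genes with a tile. Their mean level was 6.66% and 7.35% in old sperm, and 6.88%, 6.18% and 7.86% in young sperm, so the depth of the valleys overlapped between the ages. Of the 34 low tiles of genes with an annotated start, 14 were within 2 kb of it, 17 between 2 and 10 kb and 3 beyond 10 kb. Pax7, of muscle and neural crest progenitors, had a pair of adjacent low tiles over 11 kb into the gene, at 18.8% and 6.46%. Lhx9, needed for gonad formation, had a tile at 7.68% on 22 CpGs centred 10943 bp after its annotated start. That start lies inside the gene span. Of the tiles at 80% or more whose gene has an annotated start, 38 of 41 lay beyond 10 kb.

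**Figure D3:**
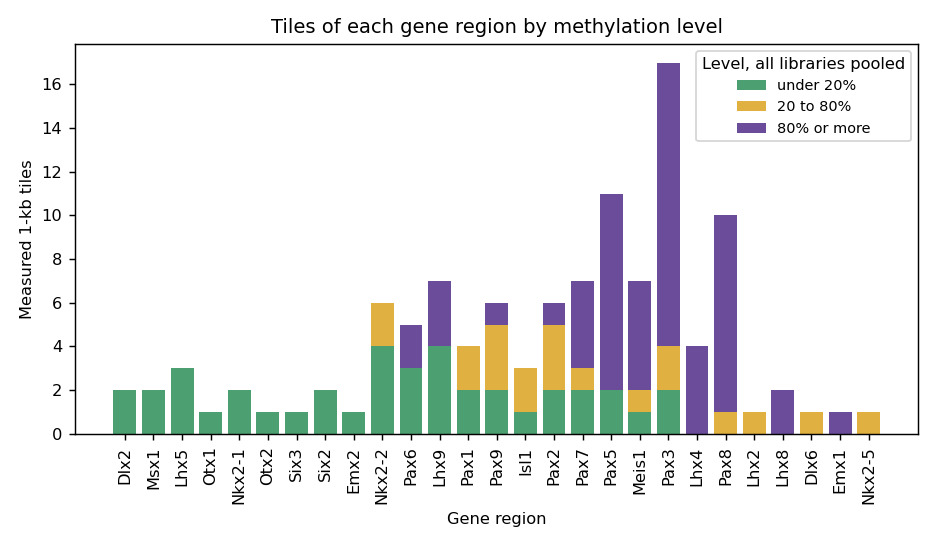
Number of measured 1-kb tiles in each gene region, split by the level of all libraries pooled (green, under 20%; yellow, 20 to 80%; purple, 80% or more). Genes such as Dlx2, Msx1, Lhx5, Nkx2-1 and Six2 hold low tiles alone, while Pax3, Pax5 and Meis1 combine 1 or 2 low tiles with many high ones.

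In the gene-region test, 0 of the 26 regions had an adjusted p under 0.05 (quasi-binomial model with Benjamini-Hochberg adjustment over all regions; percent called over all regions, 0), and limma also called 0. A binomial model, which ignores the spread between replicates, called 1, Lhx5. At an unadjusted p under 0.05, the model named 1 of the 26, Lhx5, against 1.64% of all regions, and limma named 0, against 3.23% of all regions. The mean was higher in old sperm in 18 regions and lower in 8, while among all regions 53.3% were higher and 46.7% lower. Both old libraries lay above all young libraries in 2 regions, Lhx5 and Lhx8 (background 7.47%), and below them in 0 (background 6.47%). In 20 of the 26 the old mean lay within the range of the young libraries, and in 23 the difference was under 5 points.

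**Figure D4:**
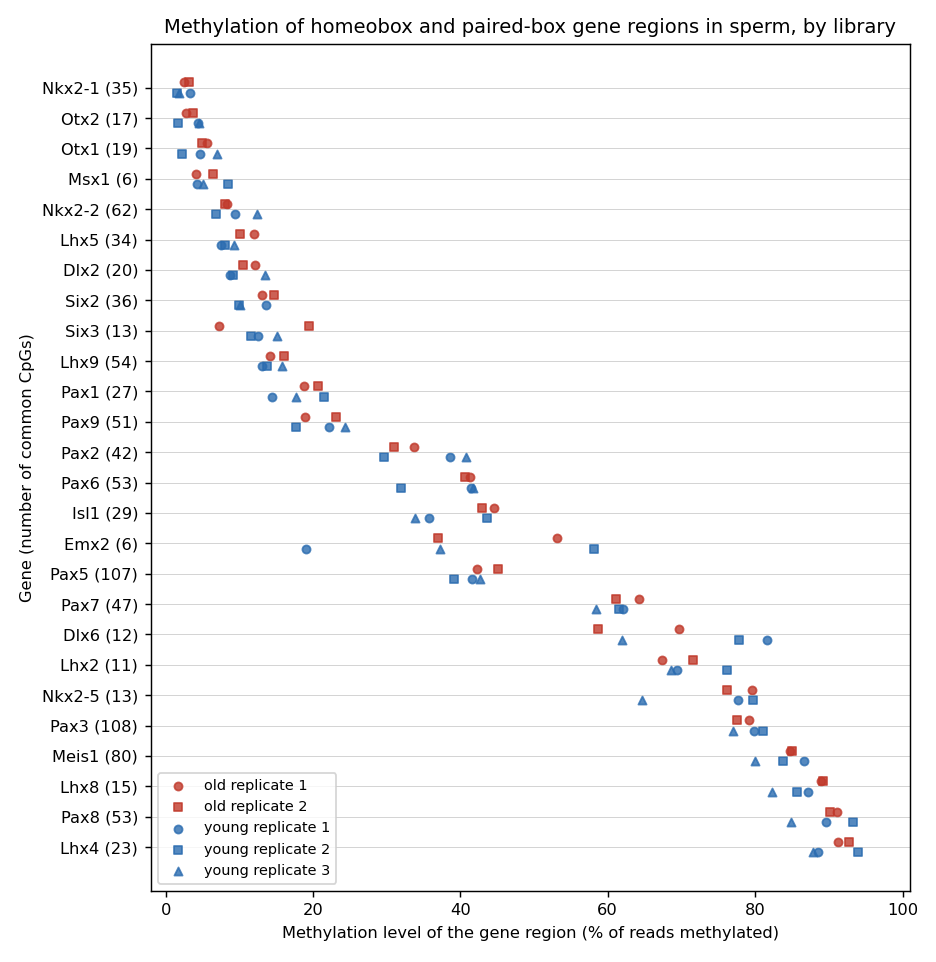
Methylation level (%) of each of the 26 measured gene regions in each library (red, old; blue, young), ordered by level, with the number of common CpGs in brackets. Levels run between 2.46% (Nkx2-1) and 90.7% (Lhx4), and the libraries of the ages overlap in all regions except Lhx5 and Lhx8.

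Among the NK homeobox genes, Nkx2-1, which specifies thyroid, lung and ventral forebrain, was the least methylated of all 26 regions. It had 2.56% and 3.24% in old sperm, and 3.34%, 1.56% and 1.77% in young sperm, at 35 CpGs. The young range enclosed both old values. Its low stretch covered 2 adjacent tiles centred 3407 and 4407 bp into the gene. Nkx2-2, a regulator of ventral neural tube and pancreatic islet cells, had 8.34% and 8.03% in old sperm, and 9.44%, 6.86% and 12.5% in young sperm. Nkx2-5, the cardiac member, was measured only in its flank, at 79.6% and 76.1% in old sperm, and 77.7%, 79.8% and 64.7% in young sperm. All of its 13 common CpGs lie outside the gene, in 1 tile upstream of its start, so the level is not one of the gene itself. Young replicate 3 alone was low there. At every listed CpG the start window was at 6.79%, all libraries pooled, but young replicate 2 had no reads in it. Old replicates 1 and 2 had 5.88% and 26.1% in that window, and young replicates 1 and 3 had 3.08% and 2.50%. Nkx6-1, of pancreatic beta cells and motor neuron progenitors, had only 2 common CpGs and was not tested.

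The Otx genes, which pattern forebrain and midbrain, were low as well, but measured mostly beside the genes. All 19 common CpGs of Otx1 and 15 of the 17 of Otx2 lay in the flanks. Otx2 had 2.82% and 3.67% in old sperm, and 4.43%, 1.74% and 4.47% in young sperm, and Otx1 had 5.56% and 4.97% in old sperm, and 4.61%, 2.20% and 6.94% in young sperm. In both genes the old values lay inside the young range. Emx2, of cerebral cortex and the urogenital tract, was the most variable region, at 53.1% and 37.0% in old sperm, and 19.0%, 58.1% and 37.3% in young sperm. It rests on 6 CpGs and 42 to 64 reads, and its difference of 6.89 points was smaller than the SD of 19.6 points among young libraries (unadjusted p = 0.511). Leaving out young replicate 1 gave -2.66 points, young replicate 2 gave 16.9, old replicate 1 gave -1.19 and old replicate 2 gave 15.0. With every listed CpG the difference was -6.36 points. Emx1 had 3 common CpGs, and Gsc, a gene of the embryonic organizer, had 0.

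Six2, Six3 and Six6 act in eye, forebrain and kidney. Six2, which keeps nephron progenitors undifferentiated, had 13.03% and 14.7% in old sperm, and 13.6%, 10.03% and 10.1% in young sperm. Its difference was 2.65 points (unadjusted p = 0.0954), and old replicate 1 lay below young replicate 1. It was 0.0026 points with at least 10 reads per CpG and -0.344 as a mean of single CpGs. Six3, of eye and forebrain, had 7.27% and 19.5% in old sperm, and 12.5%, 11.6% and 15.2% in young sperm, with the old libraries at both ends of the range. Six6 had 4 common CpGs and was not tested.

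Dlx and Msx genes act in the branchial arches, limbs and forebrain. Msx1, of tooth and palate, had 4.08% and 6.38% in old sperm, and 4.21%, 8.47% and 5.10% in young sperm, at 6 CpGs. In Msx1 and Dlx2 all common CpGs lay in the flanks. Dlx2 had 12.1% and 10.5% in old sperm, and 8.80%, 9.10% and 13.5% in young sperm. Dlx6 had the largest difference of the 26, with 69.7% and 58.7% in old sperm, and 81.6%, 77.8% and 61.9% in young sperm. The difference was -9.58 points, within the young SD of 10.4 points, and the groups overlapped (unadjusted p = 0.367). It was -15.5 points without young replicate 3 (unadjusted p = 0.0097), -15.1 without old replicate 1, -5.67 without young replicate 1 and -4.09 without old replicate 2. Its region also holds the antisense genes Dlx6os1 and Dlx6os2, whose CpGs cannot be told apart from its own. Dlx5, Msx2 and Dlx1 had 2, 1 and 0 common CpGs.

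LIM homeobox genes spanned the whole range. Lhx5, of forebrain development, was the region with the smallest p, at 12.04% and 10.1% in old sperm, and 7.50%, 8.05% and 9.33% in young sperm. Both old libraries lay above all young ones, by 2.76 points on average (34 CpGs, 1494 to 1982 reads, unadjusted p = 0.0277, adjusted p = 0.9998 by the quasi-binomial model). Most of these reads come from 1 tile in the flank outside the gene, chr5:120430001-120431000, with 978 to 1339 reads per library on 11 CpGs. That tile had 14.2% and 11.3% in old sperm, and 8.34%, 11.3% and 9.34% in young sperm, where young replicate 2 was as high as old replicate 2. The Lhx5 region as a whole also overlaps the genes Gm27199 and Gm31976. Within the gene span alone the Lhx5 difference was 0.714 points (unadjusted p = 0.693).

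Lhx8, of forebrain cholinergic neurons and oocytes, had 88.9% and 89.2% in old sperm, and 87.1%, 85.7% and 82.2% in young sperm. The libraries did not overlap and the difference was 4.02 points (unadjusted p = 0.0702), but as a mean of single CpGs it was -1.69 points. Isl1, of motor neurons, heart progenitors and islets, had 44.6% and 43.0% in old sperm, and 35.7%, 43.6% and 33.9% in young sperm, a difference of 6.05 points (unadjusted p = 0.146). Over the gene span alone it was 1.00035 points, as a mean of single CpGs 0.406 and with every listed CpG -0.0702. Without young replicate 2 it was 8.98 points (unadjusted p = 0.0292). Inside that region, adjacent tiles had differences of opposite sign. The tile chr13:116298001-116299000 had 39.1% and 32.7% in old sperm, and 52.9%, 52.5% and 43.9% in young sperm, without overlap (unadjusted p = 0.0450). The next tile had 84.6% and 84.3% in old sperm, and 71.3%, 85.05% and 68.9% in young sperm, with overlap (unadjusted p = 0.0815). Lhx4, of pituitary and motor neurons, had the highest level of the 26, with 91.2% and 92.7% in old sperm, and 88.5%, 94.0% and 87.9% in young sperm. Lhx9 was at 15.1% ± 1.30 (SD, n = 2) in old sperm and 14.2% ± 1.44 (SD, n = 3) in young sperm, and Lhx2, of forebrain and eye, at 69.4% ± 2.98 in old sperm and 71.4% ± 4.16 in young sperm. Lhx1, Lhx3 and Lhx6 had 0 common CpGs.

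The paired-box genes were all measured. Pax1 and Pax9, which act in the sclerotome that forms vertebrae, were the lowest, at 19.7% ± 1.30 and 21.0% ± 3.04 in old sperm (SD, n = 2), against 17.8% ± 3.49 and 21.4% ± 3.40 in young sperm (SD, n = 3). Pax2, of kidney and inner ear, had 33.8% and 31.0% in old sperm, and 38.6%, 29.6% and 40.8% in young sperm. Its difference of -3.97 points was within the young SD of 5.91 points (unadjusted p = 0.208). Leaving out young replicate 2 gave -7.33 points (unadjusted p = 0.0127), young replicate 3 gave -1.75 and old replicate 2 gave -2.57. With every listed CpG the sign turned, to 3.10 points. Pax6, the eye regulator, was at 41.0% ± 0.425 in old sperm and 38.4% ± 5.58 in young sperm.

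Pax5 had 42.2% and 45.1% in old sperm over its whole region, and 41.6%, 39.2% and 42.7% in young sperm (unadjusted p = 0.159). Pax7 and its relative Pax3, both of muscle and neural crest progenitors, were at 62.7% ± 2.20 and 78.4% ± 1.15 in old sperm, against 60.7% ± 1.99 and 79.3% ± 2.14 in young sperm. Pax8, of thyroid and kidney, was the most methylated paired-box gene, with 91.1% and 90.2% in old sperm, and 89.6%, 93.3% and 84.9% in young sperm. Its region has 10 measured tiles, none under 20%, and no common CpG within 1 kb of its start. At every listed CpG 1 of its 14 tiles was under 20%, chr2:24472001-24473000. Meis1 likewise had 84.8% and 84.996% over its region in old sperm, and 86.7%, 83.7% and 79.98% in young sperm, in spite of its unmethylated start. Irx3, of neural patterning, and Cdx2, of trophectoderm and gut, had 0 common CpGs.

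**Figure D5:**
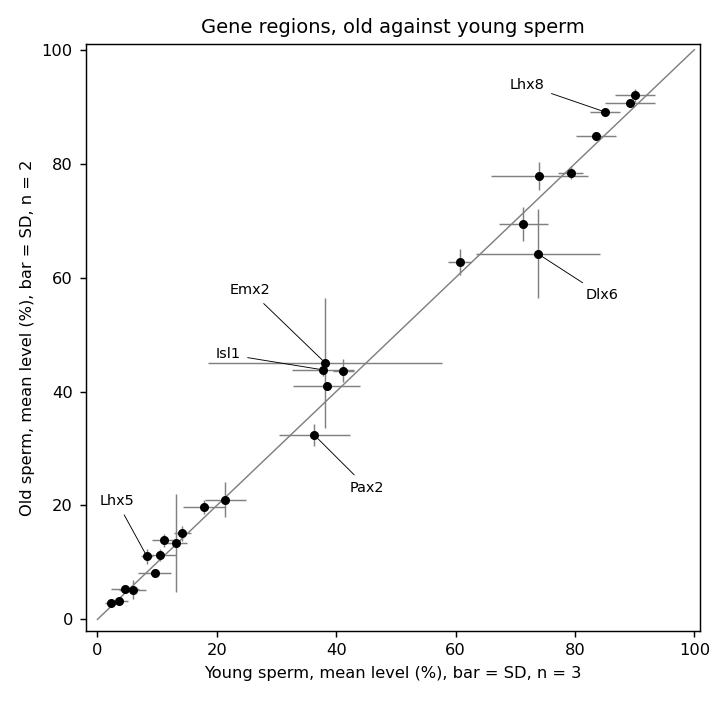
Mean methylation level (%) of the 26 gene regions in old sperm (vertical axis, SD of 2 libraries) against young sperm (horizontal axis, SD of 3 libraries), with the line of equal levels. In 20 of the 26 the old mean lies within the range of the young libraries; the 5 largest differences and Lhx5 are named, and of these Dlx6 and Pax2 lie below the line.

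Among single tiles, 0 of the 114 had an adjusted p under 0.05 (quasi-binomial model; percent called over all tiles, 0), and limma also called 0, while the binomial model called 3, in Nkx2-2, Lhx5 and Pax2. At an unadjusted p under 0.05 the model named 7, against 3.06% of all tiles, and limma named 4, against 4.29% of all tiles. A tile rested on as few as 15 reads in a library. Of the 114 tiles, 5 were higher in old sperm at this p (1.76% of all tiles) and 2 lower (1.3% of all tiles). Among all tiles at this p, 57.6% were higher in old sperm. Both old libraries lay above all young ones in 9 tiles (7.89%; background 8.82%) and below them in 7 (6.14%; background 8.14%), shares near the background. The smallest p belonged to a tile of Pax8, chr2:24454001-24455000, centred 21098 bp into the gene. It had 89.9% and 92.9% in old sperm, and 82.4%, 86.4% and 72.5% in young sperm, without overlap, on 44 to 102 reads (difference 10.9 points, unadjusted p = 0.0137). A tile of Nkx2-2 at chr2:147176001-147177000 had 24.9% and 22.0% in old sperm, and 35.6%, 27.1% and 34.2% in young sperm, again without overlap (difference -8.88 points, unadjusted p = 0.0139). A tile of Pax6, centred 6038 bp from a start, had 3.52% and 2.74% in old sperm, and 0%, 1.18% and 0.641% in young sperm, without overlap (unadjusted p = 0.0293). Further tiles at this level lay in Lhx5 and Isl1, given above, in Lhx8 (5.596 points) and in Pax5 (11.4 points, centred 73193 bp into the gene).

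Reads of all 26 regions and the 5 others pooled gave 38.1% and 38.0% in old sperm, and 36.7%, 34.5% and 36.9% in young sperm, a difference of 2.04 points. The pooled old values lay above all young ones. As a mean of single CpGs, which gives each CpG the same weight, the difference was 0.147 points, with 46.9% and 46.6% in old sperm, and 47.2%, 46.9% and 45.7% in young sperm, and the groups overlapped. Pooled reads at all common CpGs of the genome gave 86.2% and 85.8% in old sperm, and 85.3%, 85.4% and 86.1% in young sperm. There the old mean was also higher, and the ages overlapped.

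The genes with too few common CpGs could be looked at only with every listed CpG, where the libraries do not share all CpGs. Then 36 of the 38 regions were tested, all but Irx3 and Gsc, and 0 had an adjusted p under 0.05 (quasi-binomial model; percent called over all 30411 regions, 0). At an unadjusted p under 0.05 there were 2, against 3.74% of all regions. They were Emx1 and Msx2, both picked out by these values. Emx1, of cerebral cortex, had 53.5% and 54.8% in old sperm, and 89.2%, 84.0% and 70.1% in young sperm (unadjusted p = 0.00992). Msx2, of skull and limb, had 61.3% and 52.9% in old sperm, and 36.8%, 53.1% and 9.73% in young sperm, with overlap (unadjusted p = 0.0414). At the common CpGs the same genes had 3 and 1 CpGs, too few for a test. The Emx1 CpGs were at 81.0% and 90.5% in old sperm, and 100%, 88.9% and 93.5% in young sperm, which overlap.

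In related gene families the share of low regions varied. Of 87 other homeobox and paired-box genes, 53 were tested, with a median level of 68.8% and 39.6% of regions under 50%; 35 were higher and 18 lower in old sperm. Of 39 Hox genes of clusters A to D, 21 were tested, with a median of 18.8% and 71.4% under 50%; 15 were higher and 6 lower. Of 86 Sox, Fox, Gata and T-box genes, 46 were tested, with a median of 87.8% and 21.7% under 50%; 27 were higher and 19 lower. No list had a region at an adjusted p under 0.05, and 1, 3 and 2 regions had an unadjusted p under 0.05 in the order given.

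The libraries held 90716510 and 90640296 reads summed over listed cytosines in old sperm, and 84117315, 67774094 and 97769462 in young sperm. Of the CpGs listed in any library, 17.3% were common. Young replicates 2 and 3 were often the extremes. Among the 17 regions under 50%, young replicate 3 was highest in 7 and young replicate 2 lowest in 9, and among the 9 regions at 50% or more, young replicate 3 was lowest in 7 and young replicate 2 highest in 5. Start windows of 11 of 15 maternally methylated imprinted genes, unmethylated in sperm at their control regions, averaged 50.8% and 39.6% in old sperm, and 45.8%, 38.8% and 53.6% in young sperm, with 2 genes under 20%. The germline genes looked at have a promoter that is methylated in somatic cells. Windows of 6 of these 14 genes averaged 45.6% and 55.8% in old sperm, and 46.4%, 49.8% and 71.3% in young sperm, with 0 under 20%. Windows of 4 of 12 leukocyte genes were at 79.3% and 80.2% in old sperm, and 86.6%, 77.9% and 85.4% in young sperm, and those of 5 of 15 epididymal genes at 83.3% and 78.8% in old sperm, and 75.5%, 86.8% and 67.0% in young sperm. These windows include CpGs beside the promoters, and the part of other cells in the results was not tested.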

How the data were processed

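Bisulfite-sequenced sperm DNA gave 5 libraries, 2 old and 3 young, grouped by the age in the labels. Per the submitters' processing notes, Trim Galore 0.4.3, Bismark 0.16.3, methylKit 1.4.0 and the mm10 (GRCm38) build were used; their settings and any removal of duplicate reads: not given in the sources used here. Files as deposited hold, per the file headers, the count of reads covering each cytosine and the percent of them methylated. Every listed cytosine had at least 5 reads. Unconverted cytosines count as methylated.

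Strands were merged and reads summed per gene region, 1000-bp tile (at least 3 common CpGs) and window of 1000 bp either side of a start, for all genes and tiles. Starts of 33 of the 38 genes came from the RefSeq promoter sequences, and 99.99% of listed CpGs in those sequences fell on a CG. Some of these starts, such as those of Lhx9 and Pax9, lie inside the gene span and not at its end. Old and young were compared with a quasi-binomial logistic model, its dispersion moderated across all features and not let under 1, with Benjamini-Hochberg adjustment and a threshold of 0.05. Alternatives covered limma 3.58.1 (R 4.3.3) on log2 odds, a binomial model, coverage, region and tile settings, each library left out and a replicate block. The rest was done in Python 3.11.15 with scipy 1.17.1, pandas 2.3.3, numpy 2.4.6 and matplotlib 3.10.9.

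The genes and lists were chosen with earlier results of these data known. Described in full were the regions with the 5 largest differences, the 5 smallest p, the 4 highest and 4 lowest levels and the 4 largest ranges, and the tiles with the smallest p. Reads are not independent molecules.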

Additional observations from a re-analysis of the deposited data

How the results depend on the processing

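No gene of the set was called under any alternative except the binomial model, which ignores the spread between replicates. It called 1 region (Lhx5) and 3 tiles (in Nkx2-2, Lhx5 and Pax2), named after their values were seen, with 743 of all regions, 1425 of all tiles and 131 of all start windows. Over all regions, 0 to 2 were called with 1 library left out, the 2 without young replicate 3, and 3 without young replicates 2 and 3 together, an alternative chosen after seeing the data; a group left with 1 library was assumed to vary like the other. What libraries with the same replicate number share, if anything, was not known. The deviations of same-numbered libraries correlated at 0.00937 and -0.0198. These values cannot decide it, because the deviations of the 2 old libraries are mirror images of each other. With a replicate block 8 of all regions, 0 of the set, 0 tiles and 0 start windows were called. The share of low tiles in the set, 35.1%, was 46.7% with at least 10 reads per CpG, 28.1% with every listed CpG (chosen after seeing the data), 23.7% for levels under 10%, 38.6% for levels under 30% and 39.8% with tiles of 500 bp; over all tiles it was 0.455%, 1.13% and 1.04% under the last 3. The pooled difference of 2.04 points was 0.147 as a mean of single CpGs and lay between 1.27 (without young replicate 2) and 2.46 (without young replicate 3) with 1 library left out. The Lhx5 difference was 1.78 points without old replicate 1 and 3.74 without old replicate 2. Of the 17 genes described in full, 5 kept the sign of their difference under every alternative (Dlx6, Lhx4, Lhx5, Nkx2-1 and Pax5); of 180 recomputed differences 23 had the opposite sign, and their cause was not tested. Depth limits the set: 10.5% of the CpGs listed in these regions were common, 12 of the 38 genes had fewer than 5 common CpGs, and levels that rest on under 100 reads, as in Emx2 and Msx1, can differ by many points without showing it.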

Other observations

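Across the 26 measured gene regions, level went with length. Spearman's rho between the gene span and the pooled level was 0.566, across genes, which share libraries and are not independent replicates. Of the 12 regions of genes with a span under 15000 bp, such as Nkx2-1, Otx1 and Msx1, 10 were under 50% methylated, with a median of 12.1%. Among these 12, Otx1, Msx1, Dlx2 and Nkx2-5 had all common CpGs in the flanks, and Otx2 had 15 of 17 there. Their levels are thus not levels of the genes themselves. Of the 14 longer genes, such as Meis1, Pax3 and Pax8, 7 were under 50%, with a median of 51.8%. A long gene also holds more CpGs far from its start.

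The DNA at the starts of these genes was CpG-rich. The promoters were 300 bases each, from RefSeq, with 250 bases before the start and the rest from the start on. Over 43 promoters of 33 genes the median was 17 CpGs and an observed over expected CpG ratio of 0.747. A ratio of 0.6 or more was found in 69.8%. Over all 32851 promoters the medians were 7 CpGs and 0.384, and 35.8% had a ratio of 0.6 or more. Of the CpGs in these promoters, 2.73% were common in the set and 1.19% over all genes, so most starts of both kinds went unmeasured at the common CpGs.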
